A study of Mus musculus with 2 samples.

Results

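The genes described here encode the subunits of the respiratory chain and the ATP synthase that are transcribed in the nucleus. They were taken by symbol, as Nduf, Sdh, Uqcr, Cox4 to Cox8 and Atp5 genes with at least 100 UMIs (unique molecular identifiers, which count captured transcripts) in all, and 81 of the 22620 genes in the matrices were members. Of the members, 36 belong to complex I, 4 to complex II, 8 to complex III, 16 to complex IV (Ndufa4 and Ndufa4l2 included) and 17 to complex V. Of the 88 matching symbols, 1 was left out as a pseudogene (Cox5b-ps, 163 UMIs) and 6 for having too few UMIs, of which Cox6b2 (91 UMIs) was nearest to the minimum. The members nearest to it on the inner side were Cox4i2 with 420 UMIs, Cox6a2 with 511, Cox7a1 with 580 and Ndufa4l2 with 796, followed at a distance by Sdhd with 14786. All 81 were placed in the GENCODE M21 annotation of GRCm38, on 19 chromosomes.

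The data were 2 single-cell RNA-seq libraries (10x Genomics 3′ chemistry), 1 of primary tumours (PT) and 1 of paired lymph nodes (LN), from C57BL/6J mice bearing EO771-HEVM3 tumours. EO771 is a mouse mammary carcinoma line, and HEVM3 is a derivative obtained by 3 rounds of selection for cells that reached the lung through the lymph nodes. Tissue of 6 mice entered the study and no map from cells to mice was used here, so each tissue is 1 sample, there is no replicate check and no test between tissues. The labels name no further treatment, and no tumour-free node was analysed here. PT and LN were digested with different enzymes for different times, so tissue, digestion and library cannot be told apart. All intervals are exact 95% intervals that cover counting error only.

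The PT library held 12427 cells and 173317475 UMIs, and the LN library 11617 cells and 122207852 UMIs. After the limits on detected genes and mitochondrial UMIs and the removal of presumed doublets, 8756 PT and 9689 LN cells remained. They were clustered, and clusters were named from marker genes as cancer-like, B-like and so on, which gave 19 groups (a class in a library) of at least 20 cells. A further 492 PT and 74 LN cells stayed unnamed, among them most PT clusters with T cell markers. The libraries shared 47 cell barcodes, of which 31 were kept in both. In the cancer-like class 7 of 8 cancer markers were at 10 or more CPM (UMIs per 1000000 UMIs of the group) in PT and 6 of 8 in LN.

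The respiratory chain passes electrons from NADH (complex I) and succinate (complex II, which is also the succinate dehydrogenase of the citric acid cycle) through ubiquinone to complex III, and from there by cytochrome c to complex IV, where oxygen is reduced. Complexes I, III and IV pump protons, and complex V, the ATP synthase, uses the gradient to make ATP. Mitochondrial DNA encodes a few core subunits of complexes I, III, IV and V, here called mt- genes, while all subunits of complex II come from the nucleus. Several complex IV subunits and subunit c of complex V exist as paired or triplet isoforms with different tissue patterns.

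Promoter sequences were examined because many nuclear respiratory genes are known targets of NRF1, of ETS factors such as GABP, and of YY1. RefSeq promoters (GRCm38.p6, 300 bases each, 250 before to 50 after the start) were found for 66 of the 81 members, by symbol. On either strand, the NRF1 core (GCGCATGCG) was in 8 of them, or 12.1%, against 1.81% of all 27025 promoters. The ETS core (CCGGAAG) was in 16, or 24.2%, against 9.12% of all, and the YY1 core (AAGATGGCG) in 6, or 9.09%, against 1.49% of all. At least 1 of the 3 was in 26 members, or 39.4%, against 11.8% of all promoters. The runs below show the upstream part of a broadly expressed complex IV gene with the NRF1 core, of a broadly expressed complex III gene with the ETS core, and of Cox7a1, a scarce isoform whose window held none of the 3. They lie upstream of the annotated genes, at chr5:115348982-115349129 (minus strand), chr10:80406831-80407071 (minus strand) and chr7:30183921-30184143 (plus strand). Capitals mark the motif, which in Cox6a1 is matched once on each strand by overlapping letters.
Cox6a1: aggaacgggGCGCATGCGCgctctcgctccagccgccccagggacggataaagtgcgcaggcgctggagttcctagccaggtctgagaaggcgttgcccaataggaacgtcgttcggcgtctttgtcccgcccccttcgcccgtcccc
Uqcr11: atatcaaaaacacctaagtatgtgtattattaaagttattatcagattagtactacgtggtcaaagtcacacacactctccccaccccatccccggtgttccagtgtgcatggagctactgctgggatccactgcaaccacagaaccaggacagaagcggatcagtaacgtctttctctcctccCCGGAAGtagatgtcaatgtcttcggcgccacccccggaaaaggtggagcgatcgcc
Cox7a1: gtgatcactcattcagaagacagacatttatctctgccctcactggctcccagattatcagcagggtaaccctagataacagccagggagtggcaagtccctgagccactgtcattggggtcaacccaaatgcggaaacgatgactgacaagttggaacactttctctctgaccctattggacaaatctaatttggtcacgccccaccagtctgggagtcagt
A match is only a description of these letters, and no binding was measured.

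Across cell classes, cancer-like cells had the highest summed level of the 81 genes and neutrophil-like cells the lowest. The sum, in CPM of all UMIs of the group, was 24547 (24479 to 24615) in LN cancer-like cells and 24335 (24304 to 24366) in PT cancer-like cells. LN endothelial-like cells followed at 23159 (22983 to 23336), and PT T-like cells at 22404 (21889 to 22928). Macrophage-like cells were at 21033 in PT and 20575 in LN. The 2 largest classes of the node were far lower in this total, with 14192 (14126 to 14258) in LN T-like cells and 13683 (13610 to 13757) in LN B-like cells. Neutrophil-like cells had 12755 (12393 to 13124) in PT and 7931 (7363 to 8530) in LN. Between these ends, the LN HEC-like cells (high endothelial cells, which carry Glycam1, Chst4 and Fut7), PT fibroblast-like, PT endothelial-like and LN plasmacytoid dendritic cell-like (pDC-like) cells lay between 20141 and 20294, with overlapping intervals. The remaining groups lay between 17285 (LN plasma-like) and 19822 (PT dendritic-like). Ribosomal protein genes held 39.9% of the UMIs of LN T-like cells, the highest share of any group. With mt- and ribosomal protein genes left out of the total, LN T-like cells were at 24411 and LN B-like cells at 21369. In that total LN cancer-like cells were at 37647, PT macrophage-like cells at 26222, LN dendritic-like cells at 25801 and LN plasma-like cells at 21270. The distance of LN T-like and B-like cells from the other groups therefore depended on the total used.

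**Figure D1:**
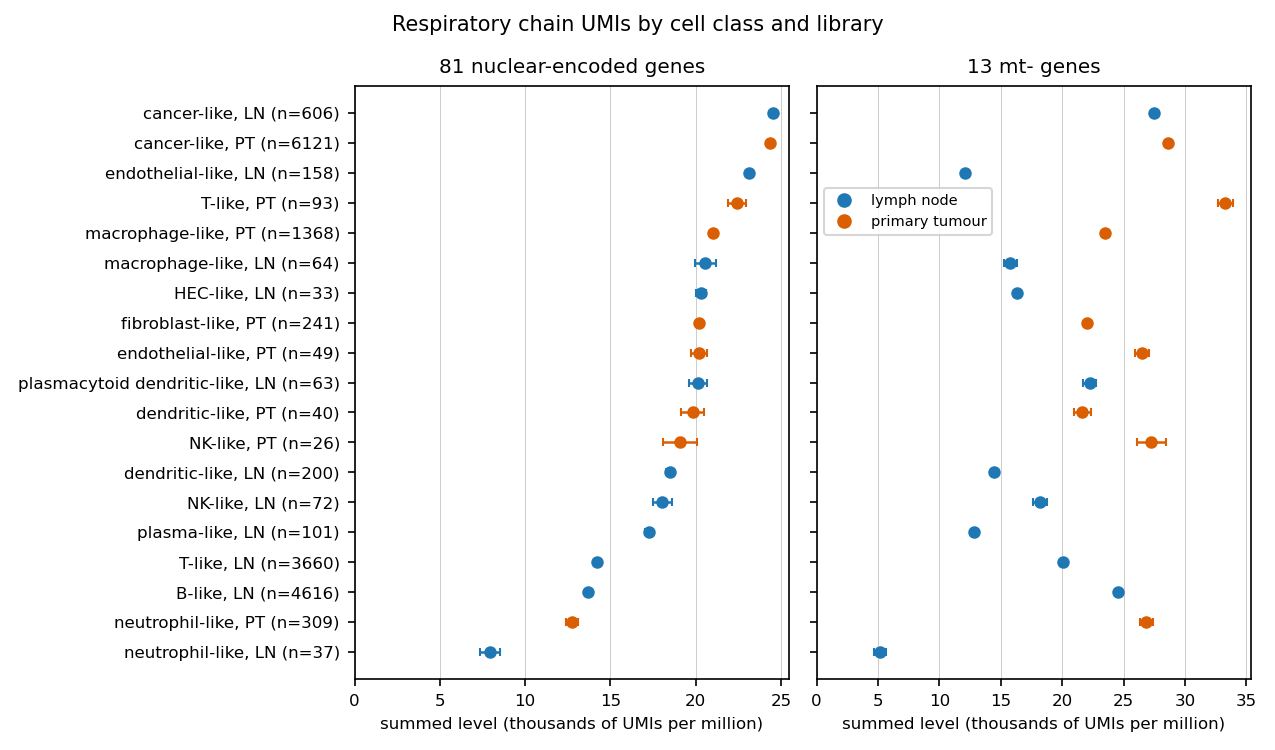
Summed level of the 81 nuclear members and of the 13 mt- genes, in CPM (axis divided by 1000), for each class and library with at least 20 cells. Cancer-like cells of both libraries stand at the top of the nuclear sum (24547 and 24335 CPM) and neutrophil-like cells of the lymph node at the bottom (7931 CPM), while the mt- sum follows another order.

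The mt- genes did not follow the same order. LN B-like cells had 24573 CPM of mt- UMIs against 13683 of nuclear members, a ratio of 1.80, and PT neutrophil-like cells had 26829 against 12755, the highest ratio of the 19 groups. LN endothelial-like cells, next to the cancer-like cells in the nuclear sum, had 12083 CPM of mt- UMIs and a ratio of 0.52, the lowest of the 19 groups. Cancer-like cells had ratios of 1.17 in PT and 1.12 in LN. Over the 19 groups Pearson's r between the nuclear and the mt- sum was 0.43. It was 0.62 between the nuclear sum and the log10 median UMI count per cell, and 0.33 with the ribosomal protein share. These groups share 2 libraries and each sum is a share of the same total, so the coefficients are descriptions. Only cells with up to 5% mitochondrial UMIs were kept, which bounds the mt- sum. Median depth ran from 730 UMIs per cell in PT neutrophil-like cells to 35080 in LN cancer-like cells, and keratin UMIs were counted in PT classes that should lack them. Krt8 and Krt18, keratins of the cancer-like cells, summed to 1555 CPM in PT neutrophil-like, 802 in PT fibroblast-like and 287 in PT macrophage-like cells. The part of depth and of these UMIs in the order was not tested.

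The complexes kept similar proportions in all 19 groups. Complex IV took 26.0% to 34.2% of the nuclear sum (median 30.9%), complex V 27.8% to 35.8% (median 31.5%), complex I 22.8% to 30.5% (median 26.7%), complex III 9.12% to 11.7% (median 10.5%) and complex II 0.926% to 1.77% (median 1.32%). Plasma-like cells had the highest complex I share and the lowest complex IV share. LN NK-like, T-like and B-like cells had the highest complex V shares, at 35.8%, 35.3% and 34.4%. Over the groups, the summed levels of complexes I, III, IV and V had correlations of 0.87 to 0.93 with each other, and complex II 0.66 to 0.76 with the others, again over groups that share libraries. The ratio of mt- to nuclear UMIs differed by complex and was highest for complex IV, whose 3 mt- genes encode its catalytic core, at 2.03 in PT cancer-like cells against 0.75 for complex I, 0.73 for complex III and 0.86 for complex V.

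A few genes carried much of each complex. These are UMI totals at the 3′ end, not levels per length. In complex I, Ndufb9, an accessory subunit of the membrane arm, had 202735 UMIs over both libraries, followed by the accessory subunits Ndufa2 (119062) and Ndufa7 (91597). In complex II, Sdha, the flavoprotein that oxidises succinate, had 30537, Sdhc 29438, the iron-sulphur subunit Sdhb 20505 and Sdhd 14786, Sdhc and Sdhd being the membrane anchors. In complex III, the hinge subunit Uqcrh had 190847, Uqcrq 138162 and Uqcr10 109973. In complex IV, Cox4i1 had 330449, Cox6c 292507 and Cox8a 242941. In complex V, the catalytic beta subunit Atp5b had 219230, Atp5e 198786 and Atp5j2 169175.

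**Figure D2:**
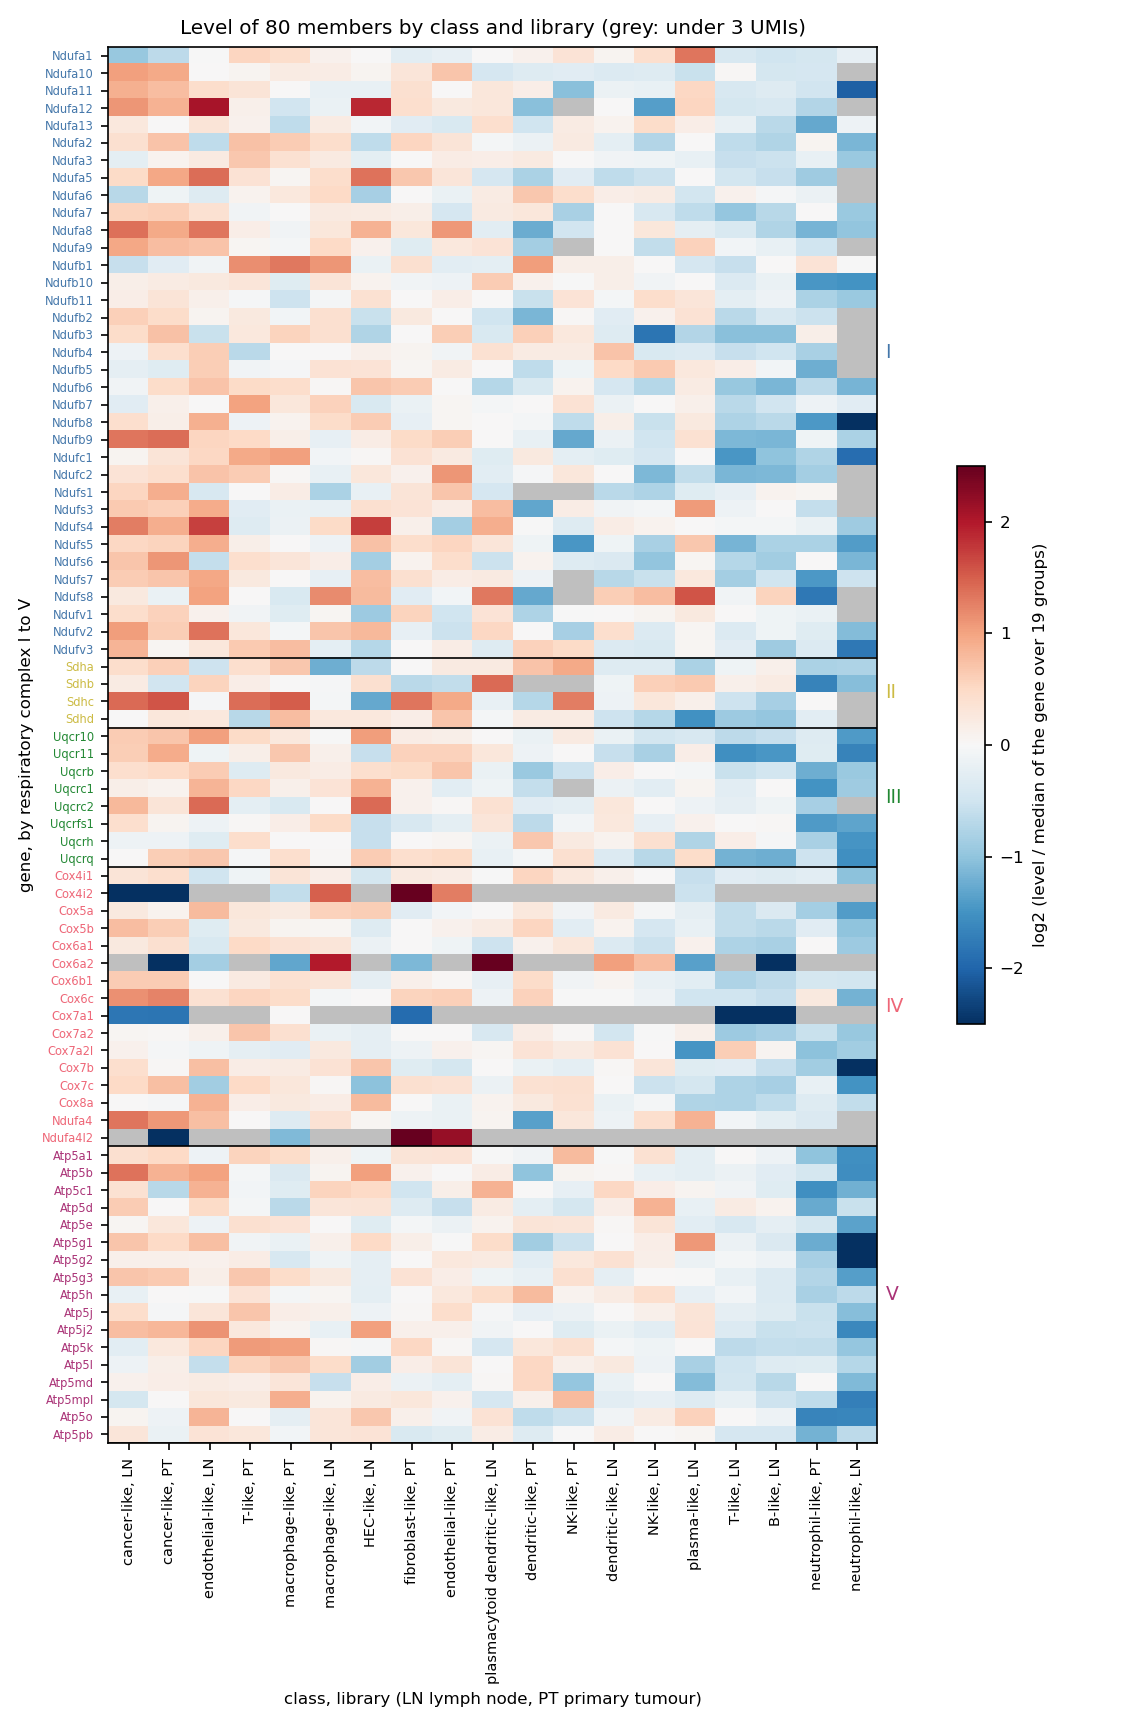
Level of 80 members in each class and library, coloured on a log scale relative to the gene's own median over the groups; grey marks cells of the plot with under 3 UMIs. Rows vary in many members, and the highest groups stand farthest above their row's median in the complex IV isoforms Cox6a2 in LN pDC-like cells (959 CPM) and Ndufa4l2 and Cox4i2 in PT fibroblast-like cells (299 and 132 CPM).

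Most members, but not all, varied between classes along with their sum. In the median member the highest group was 1.82 times the median group and 4.95 times the lowest, and in 30 of 81 members the highest group reached 2 times the median group, with levels under 3 counts set to 3 counts. Each member's level was correlated with the sum of the others over the 19 groups. The coefficients ran from 0.00 (Ndufa1) and 0.03 (Cox6a2) to 0.84 (Atp5g3), with a median of 0.63, and 60 of 81 were at least 0.5. Neither this count nor that of 30 was made over all genes, so neither is shown to be particular to the members. LN endothelial-like cells were the highest group for 13 members, LN cancer-like cells for 12 and PT cancer-like cells for 10, and LN neutrophil-like cells were the lowest for 46. The LN endothelial-like class mixed subclusters with median depths from 2901 to 32880 UMIs, whose part was not tested. In LN neutrophil-like cells (37 cells) 3 counts are 32.9 CPM, so some of their lowest values are this floor and not measured levels. Since the clusters were built from these same counts, differences between classes are given as descriptions.

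Among members of even expression, a few complex I genes departed most from their median. Ndufa12, an accessory subunit, was at 298 CPM in LN endothelial-like and 264 in HEC-like cells against a median of 71.3. Ndufs4, an accessory subunit near the NADH-oxidising module, was at 269 in HEC-like and 265 in LN endothelial-like cells but at 45.0 in PT endothelial-like cells. Ndufs8, a core iron-sulphur subunit, was at 167 in plasma-like and 140 in pDC-like cells and at 16.2 in PT neutrophil-like cells. Ndufb9, the top complex I gene, was at 746 in PT and 715 in LN cancer-like cells, and at 128 in B-like and 130 in LN T-like cells. Thus for Ndufb9 both cancer-like groups lay above every other group, while Ndufa12 and Ndufs4 peaked in both endothelial groups of the node.

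The complex II genes did not share 1 pattern. Sdhc was highest in PT cancer-like (112 CPM), PT macrophage-like (108) and LN cancer-like cells (101), and lowest among the groups where it was detected in HEC-like cells (15.5). Sdhb was highest in pDC-like (184) and plasma-like cells (109). Sdha was highest in PT NK-like cells (144, from 26 cells) and was at 119 in PT macrophage-like and 112 in PT cancer-like cells. Sdhd was highest in PT macrophage-like cells (77.1) and lowest in plasma-like cells (15.8).

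The tissue isoforms of complex IV had the sharpest patterns. Cox6a2 is known as the heart and skeletal muscle form of subunit 6a, and Cox6a1 is the broad form. Cox6a2 (chr7:128205435-128206387) had 287 UMIs in 54 of 63 LN pDC-like cells, 959 CPM (851 to 1076), against 157 CPM (115 to 209) of Cox6a1 in the same cells. These cells held 82.2% of its 349 UMIs in kept LN cells. Without the cell with most UMIs (15) the level was 926. The next groups were LN macrophage-like cells at 31.8 (7 UMIs), LN dendritic-like cells at 16.5 (22 UMIs, 10 of them in 1 cell) and LN NK-like cells at 13.8 (3 UMIs). B-like cells were at 0.514, and PT cancer-like cells had 3 UMIs in 6121 cells. Thinned to 1000 UMIs per cell, 55.5% (42.5 to 68.1) of pDC-like cells had a Cox6a2 UMI against 0.0246% of B-like cells; unthinned, these were 85.7% and 0.0650%, at median depths of 4686 and 1800. Cox6a2 was itself 1 of the 10 leading genes of the pDC-like cluster, so this level describes the cluster. Only 6 pDC-like cells were found in PT, with 9 Cox6a2 UMIs.

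Ndufa4l2 and Cox4i2, both known as hypoxia-responsive isoforms, were highest in PT fibroblast-like cells. Ndufa4l2 (chr10:127514967-127517154) had 560 UMIs in 133 of 241 of these cells, 299 CPM (275 to 325), which was close to the 327 CPM of its broad partner Ndufa4. These UMIs were 92.4% of the 606 in kept PT cells. The next group was PT endothelial-like cells at 36.5, with 13 UMIs of which 9 came from 1 cell. LN cancer-like cells had none, and 3 counts there would be 0.147 CPM. Cox4i2 (chr2:152754173-152765037) had 247 UMIs in 92 of the fibroblast-like cells, 132 CPM (116 to 150), against 1094 CPM of Cox4i1, and these were 83.2% of its 297 UMIs in kept PT cells. At 1000 UMIs per cell, 23.2% of fibroblast-like cells had an Ndufa4l2 UMI and 12.0% a Cox4i2 UMI; unthinned, these were 55.2% and 38.2% at a median depth of 5841. B-like cells, at a median depth of 1800, had no UMI of either gene.

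The PT fibroblast-like class also carried pericyte markers, all 7 of 7 at 10 CPM or more and 1872 CPM in sum, beside 10650 CPM of fibroblast markers. The 98 fibroblast-like cells with a UMI of Rgs5, a pericyte gene, had 434 CPM (391 to 481) of Ndufa4l2, and the 143 cells without had 184 (159 to 213). For Cox4i2 the values were 221 (190 to 254) and 56.5 (42.8 to 73.2). The broad partners differed less and not in 1 direction, with Ndufa4 at 291 and 358 and Cox4i1 at 1189 and 1012. With and without a UMI of Pdgfra, a fibroblast gene, Ndufa4l2 was at 191 and 337 and Cox4i2 at 67.0 and 154. Cells with an Rgs5 UMI were deeper (median 7038 against 5339 UMIs), which CPM of summed counts does not correct in the choice of cells.

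Cox7a1, the muscle form of subunit 7a, stayed scarce everywhere: it was at 2.29 CPM in PT and 2.31 in LN cancer-like cells, and its highest measured level was 8.17 (5.75 to 11.3) in PT macrophage-like cells (37 UMIs). Its partner Cox7a2 was at 409 CPM in PT cancer-like cells. Cox7a2l, a paralog that takes part in supercomplexes, was highest in LN T-like cells (581 CPM) and lowest in plasma-like cells (137). The broad forms Cox6b1, Cox7b and Cox8a were present in every group, Cox8a up to 1466 CPM in LN endothelial-like and 1404 in HEC-like cells.

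**Figure D3:**
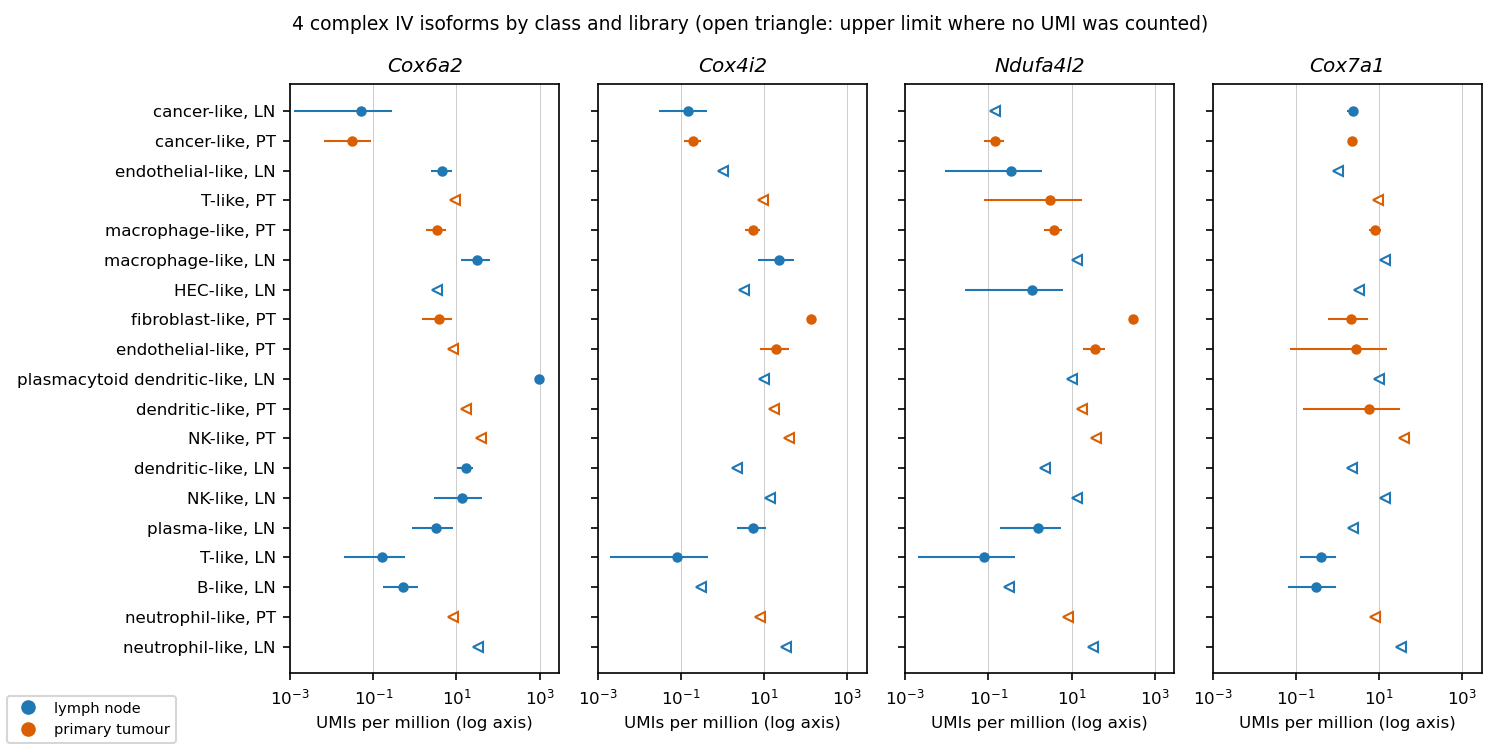
Level of 4 complex IV isoforms in each class and library, in CPM on a log axis with exact 95% counting intervals. Where no UMI was counted, an open triangle is drawn at the level that 3 counts would give. Cox6a2 is highest in LN pDC-like cells (959 CPM) and Ndufa4l2 and Cox4i2 in PT fibroblast-like cells (299 and 132 CPM), whereas the measured level of Cox7a1 is at most 8.17 CPM.

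The 3 genes for subunit c of the ATP synthase, which encode the same mature protein, were used in different proportions. Atp5g1 made up 28.2% of their UMIs in PT and 30.7% in LN cancer-like cells, 23.5% in B-like cells and 44.1% (41.7 to 46.6) in plasma-like cells. Atp5g2 made up 53.5% in B-like and 57.9% in LN dendritic-like cells but 36.0% in plasma-like cells, and Atp5g3 made up 36.2% in PT macrophage-like and 19.9% in plasma-like cells. The 3′ end of Atp5g2 shared 51.4% of its 50-base words with other annotated genes, mostly processed pseudogenes, and that of Atp5g1 39.9%, so their split is uncertain. Of the 80 members with a coding transcript end, 47 shared no such word with another gene and 4 shared over 50%: Atp5l (78.6%), Ndufs3 (64.7%), Atp5h (57.3%) and Atp5g2.

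The comparison of cancer-like cells of the node with those of the tumour showed a nearly equal respiratory chain sum. The log2 ratio of LN over PT, positive where the node was higher, was 0.01 (0.01 to 0.02) for the nuclear sum and −0.06 (−0.06 to −0.05) for the mt- sum. By complex it was −0.03 for complex I, −0.01 for II, −0.13 for III, 0.02 for IV and 0.10 for V. Within cells of 10000 to 40000 UMIs the nuclear ratio turned to −0.02. Of the 606 LN cancer-like cells, 512 formed a cluster with no PT cell, so tissue and cluster coincide for most of them.

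Single members moved more than the sum. Of 78 members with at least 100 UMIs in either library, 4 were over 1.5-fold higher in LN, against 10.9% of all 10743 genes compared, and 2 were over 1.5-fold lower, against 24.2%. In summed counts both shares lie below those of all genes, but as the mean of single-cell CPM 8 members were higher and 1 lower, for which the shares of all genes were not computed. The median member was at −0.04 in summed counts while the median gene was at −0.18. The highest was Atp5c1, the gamma subunit that turns inside the ATP synthase, with 293 CPM in LN and 140 in PT, a log2 ratio of 1.07 (1.02 to 1.11). Ndufv3, a small subunit of the NADH-oxidising module, was at 203 and 117 CPM (0.79), and Sdhb at 79.7 and 49.9 (0.68). Atp5d, the delta subunit of the central stalk, was at 548 and 355 (0.62), and Uqcrc2, a core protein of complex III, at 135 and 95.8 (0.50). At the other end were Uqcrq at 348 and 534 CPM (−0.62), Ndufa6 at 101 and 152 (−0.59), Ndufb6 at 93.0 and 136 (−0.55), Ndufb4 at 82.5 and 120 (−0.54) and Atp5k at 107 and 154 (−0.52). The other complex II genes lay at −0.14 (Sdhc), −0.15 (Sdha) and −0.28 (Sdhd), so Sdhb stood alone in its complex. Among the mt- genes mt-Atp8 was the highest (0.63) and mt-Nd6 the lowest (−0.39).

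**Figure D4:**
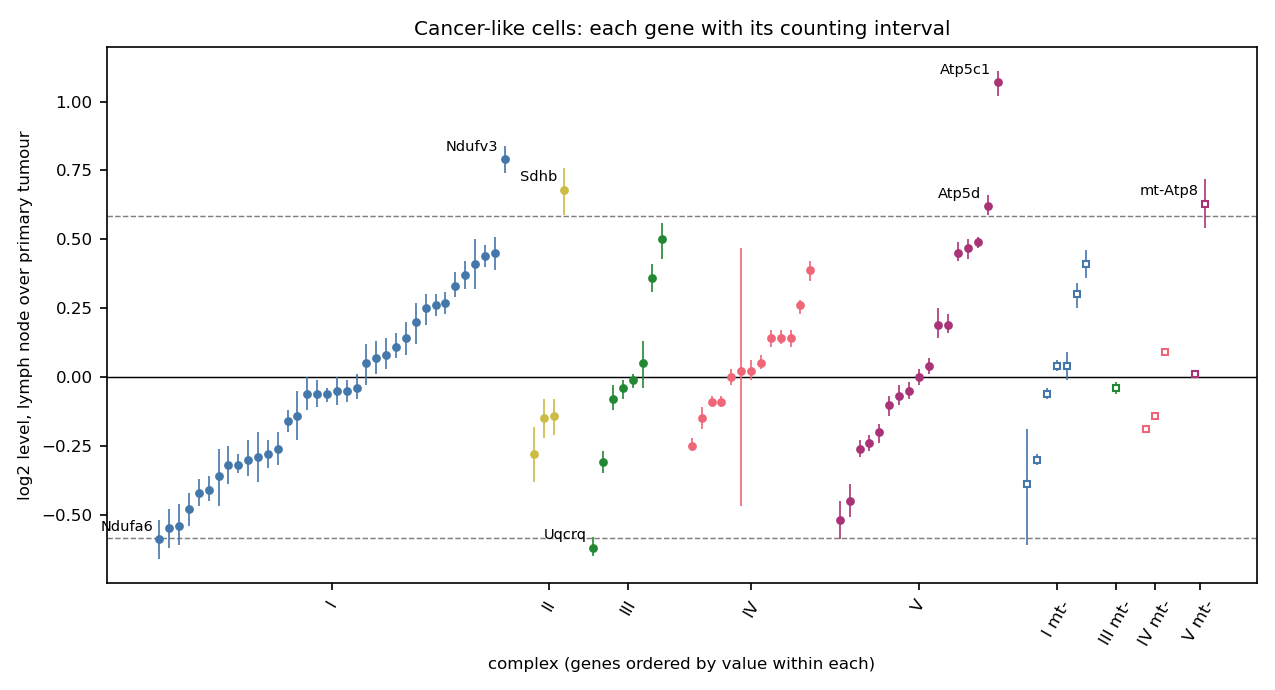
Log2 ratio of LN over PT cancer-like cells for each member and mt- gene, by complex, with exact 95% counting intervals; positive values are higher in the lymph node. Most points lie within 0.5 of 0, and Atp5c1 (1.07) stands apart at the top and Uqcrq (−0.62) at the bottom.

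Other genes of the pathway were read in the same comparison. Of 45 assembly factors compared, 1 was over 1.5-fold higher in LN and 6 lower, with a median of −0.17. Tmem70, needed for ATP synthase assembly, was at 0.69 and Ndufaf7 at 0.50, while the haem farnesyltransferase Cox10 was at −0.89 and the copper chaperone Sco1 at −1.11. Of 17 genes of electron carriers and ubiquinone synthesis, none was higher and 1 lower, with a median of −0.09, from Coq7 (0.55) and Coq6 (0.46) to Etfdh (−0.54) and Coq8b (−0.59). Of 19 genes of mitochondrial DNA expression and biogenesis, none was higher and 3 lower, with a median of −0.15. There Tfam, which packages mitochondrial DNA, was at 0.47 and Ssbp1 at 0.34, and Tfb1m was at −0.79 and Pprc1 at −0.86. Of 16 citric acid cycle genes, 2 were higher, fumarase (Fh1, 0.90) and Suclg1 (0.75), and 2 lower, among them Ogdh (−0.61), with a median of −0.28. Of the 13 mt- genes 1 was higher and none lower, and of 12 isoform genes compared none passed in either direction, with medians of 0.01 and 0.03. The shares of all genes given above, and their median of −0.18, apply to each of these counts.

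Among the cancer-like clusters of the tumour itself the nuclear sum ranged further than between the tissues. It was 19474 CPM in cluster 2 (led by Gpx2, Elf3 and Sox9), 19794 in cluster 7 (Slurp1, Mt4), 21223 in cluster 4 (Tff1, Alb), 29599 in cluster 5 (Ubd, Wnt6) and 30657 in cluster 12 (Cyp1a1, Mab21l4). In LN, cluster 11 was at 25068 and cluster 4 at 21274, so the cells of cluster 4, the cluster shared best by both tissues, had nearly the same sum in both. Clusters 5 and 12 had median depths of 22884 and 22470 UMIs and ribosomal protein shares of 24.1% and 25.8%, whereas cluster 2 had 7005 UMIs and 44.6%. Their part in the difference was not tested, but with mt- and ribosomal protein genes left out of the total the sums were 36764 in cluster 2, 32340 in cluster 4, 32909 in cluster 7, 40617 in cluster 5 and 43282 in cluster 12.

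Clusters 5 and 2 were set against each other after these sums were seen. The log2 ratio of cluster 5 over cluster 2 was 0.60 for the nuclear sum and 0.30 for the mt- sum. Of 77 members compared 52 were over 1.5-fold higher and 2 lower, but so were 50.4% and 7.92% of all 9725 genes, and the median member was at 0.86 against 0.59 for all genes. Sdhb was highest (22.3 CPM in cluster 2, 76.3 in cluster 5, log2 1.77), followed by Ndufa4 (365 and 1146, 1.65) and Ndufa5 (84.2 and 249, 1.57). The lowest were Cox7a2l (578 and 233, −1.31), Ndufa6 (−0.63) and Uqcrh (−0.48). Without mt- and ribosomal protein genes in the total the nuclear ratio was 0.14 and the mt- ratio turned to −0.16. In that total 20 members were higher and 4 lower, for which the shares of all genes were not computed.

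Among the B-like cells of the node, a cluster led by genes known from germinal centre B cells had a high respiratory chain sum. Cluster 21 (89 cells, led by Rgs13 and Mef2b) had 22998 CPM of nuclear members, against 13803 in cluster 0 (2728 cells, led by Ighd, Bank1 and Fcmr). This pair was also chosen after the sums were seen. The log2 ratio was 0.74 (0.71 to 0.76) for the nuclear sum but −0.25 (−0.27 to −0.22) for the mt- sum, and by complex 0.77 for I, 0.69 for II, 0.49 for III, 0.74 for IV and 0.78 for V. Of 77 members 54 were over 1.5-fold higher and none lower, against 19.6% and 29.1% of all 5351 genes compared, and the median member was at 0.84 while the median gene was at −0.13.

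The members of that comparison ran from core enzymes to accessory subunits. Ndufc2 was at 210 CPM in cluster 21 and 69.6 in cluster 0 (1.60), Ndufa8 at 179 and 63.1 (interval of the ratio 1.21 to 1.79) and Atp5c1 at 469 and 170 (1.47). In complex II, Sdhb (1.21) and Sdhd (1.18) were higher, Sdhc was at 0.60, and Sdha at −0.17 with 82.9 and 94.1 CPM. The lowest were Ndufs1 (−0.34), Ndufa6 (−0.17) and Sdha, and Uqcrh, the complex III gene with most UMIs, was at 0.05. Cluster 21 was deeper, with a median of 6303 UMIs against 1808, and held more of the proliferation gene Mki67 (383 against 6.26 CPM). Among cells with 2000 to 6000 UMIs (39 and 914 cells) the nuclear ratio was 0.56 with 34 members higher and 2 lower. The shares of all genes were not computed for these cells, and the part of cycling cells was not tested.

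A similar pair stood among the macrophage-like cells of the tumour. Cluster 15 (243 cells, led by Mmp12, Lpl, Cd36 and Gpnmb, genes of lipid uptake and of lipid-laden macrophages among them) had 28591 CPM of nuclear members, and cluster 8 (1125 cells, led by F13a1, C1qb and Mrc1) had 18366. The log2 ratio was 0.64 (0.62 to 0.66) for the nuclear sum and −0.29 (−0.31 to −0.27) for the mt- sum. By complex the nuclear ratios lay between 0.52 (III) and 0.67 (IV). Of 77 members 41 were over 1.5-fold higher and 1 lower, against 17.3% and 22.4% of all 4038 genes compared, and the medians were 0.59 for the members and 0.04 for all genes. Cox7a2 was at 963 and 376 CPM (1.36), Ndufb4 at 163 and 63.7 (1.36) and Cox7b at 515 and 203 (1.34). The member that was lower was Cox7a2l, at 226 and 340 CPM (−0.59). Median depths were 3681 and 2262 UMIs, and the ribosomal protein sum was lower in cluster 15 (−0.42). Within cells of 2000 to 6000 UMIs the nuclear ratio was 0.54. This pair too was chosen after the sums were seen.

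**Figure D5:**
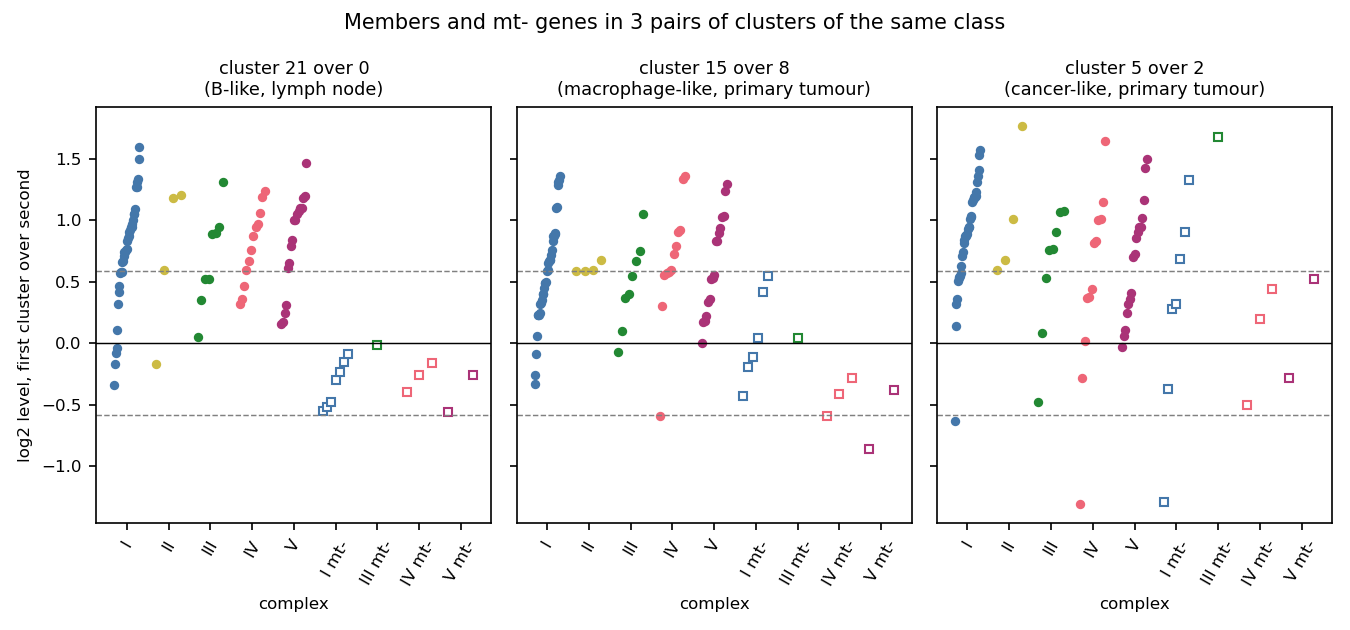
Log2 ratio of each member and mt- gene, by complex, in 3 pairs of clusters of the same class: cluster 21 over cluster 0 (LN B-like), cluster 15 over cluster 8 (PT macrophage-like) and cluster 5 over cluster 2 (PT cancer-like). Most nuclear members lie above 0 in each pair, with sums at 0.74, 0.64 and 0.60, whereas the mt- sums lie at −0.25, −0.29 and 0.30. With mt- and ribosomal protein genes left out of the total, the mt- sum of cluster 5 over cluster 2 lay at −0.16.

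Between the tissues, the mt- sums were lower in the node in each of the other classes compared. The nuclear sums of T-like and neutrophil-like cells, described last, were lower as well (−0.66 and −0.68), and those of the other 5 groups lay between −0.11 and 0.20. In macrophage-like cells the log2 ratio of LN (64 cells) over PT (1368 cells) was −0.03 (−0.08 to 0.01) for the nuclear and −0.57 (−0.62 to −0.52) for the mt- sum. In dendritic-like cells (200 and 40 cells) the ratios were −0.10 and −0.58, in NK-like cells (72 and 26 cells) −0.08 and −0.58, and in the Foxp3 cluster 9, whose leading genes are those of regulatory T cells (530 and 42 cells), −0.11 and −0.64. Endothelial-like cells (158 and 49 cells) had 0.20 and −1.13. Every class carries the same pair of libraries, so these ratios are not independent of each other. Ribosomal protein genes moved the other way in most of them. Their ratios were 0.39 in macrophage-like, 0.39 in dendritic-like, 0.43 in cluster 9 and 0.53 in endothelial-like cells, but −0.04 in NK-like and −0.65 in neutrophil-like cells.

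Single members differed more than those sums. In macrophage-like cells 9 of 77 members were over 1.5-fold higher in LN and 8 lower, against 18.1% and 23.5% of all 4977 genes, so both shares lay below those of all genes. Ndufs8 (127 against 42.9 CPM, 1.59), Atp5d (440 against 223, 0.99) and Ndufa13 (0.86) were highest, and Sdha (7 against 539 UMIs, −1.81), Sdhc (8 against 487 UMIs, −1.48) and Ndufc1 (−1.05) lowest. Complex II as a whole was at −0.95 (−1.45 to −0.53). This LN class held more of the monocyte markers, at 4432 CPM in sum against 1543 in PT, with all 7 of 7 detected in both, and the part of that difference was not tested.

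In dendritic-like cells 10 of 62 members were higher and 6 lower, against 23.8% and 19.2% of all 1753 genes. Ndufs8 (1.73, from 4 PT UMIs), Ndufa4 (1.19) and Ndufa8 (1.15) were highest, and Ndufb3 (−0.94), Ndufv3 (−0.93) and Ndufb1 (−0.92) lowest. In cluster 9, 13 of 74 were higher and 13 lower, against 20.8% and 23.6% of all 3169 genes. Ndufv1 (2.18, from 1 PT UMI), Ndufs8 (91.7 against 27.9 CPM, from 3 PT UMIs) and Ndufs4 (1.40, from 4) were highest, with intervals that reached down to 0.26, 0.15 and 0.19, and Ndufc1 (−1.35), Ndufa2 (−1.02) and Ndufb1 (−1.01) were lowest.

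In endothelial-like cells 27 of 76 were higher and 10 lower, against 38.4% and 23.3% of all 3721 genes. Ndufs4 was at 265 CPM in LN and 45.0 in PT (2.52, 1.85 to 3.37), Ndufv2 at 178 and 47.8 (1.86) and Ndufa12 at 298 and 84.3 (1.80). Cox7c was lowest (287 and 672 CPM, −1.23), before Ndufb3 (−1.18) and Ndufs6 (−1.06). The LN endothelial-like class also carried high endothelial genes, with 1721 CPM of Glycam1, Chst4 and Fut7 in sum against 0 in PT, while the PT class held 582 CPM of cancer markers against 127 in LN. Subclusters of the LN class differed in depth, with median UMIs of 2901 (65 LN cells), 32698 (41) and 32880 (27) among them. The part of these differences was not tested.

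Members named in more than 1 of these comparisons are set side by side, in the order cancer-like, macrophage-like, dendritic-like, endothelial-like and cluster 9, all of which share the same libraries. Atp5d was at 0.62, 0.99, 0.40, 1.05 and 1.07, and Ndufs4 at 0.37, 0.65, 0.14, 2.52 and 1.40. Ndufs8 was at 0.41, 1.59, 1.73 and 1.04, with its CPM values in cluster 9 given above. All members in this list were named as highest or lowest in some of these same comparisons, so their signs are partly set by that choice. Ndufv3 changed sign, at 0.79, −0.98, −0.93, 0.09 and −0.74. Ndufc1 was at −0.26, −1.05, −0.56, 0.28 and −1.35, and Ndufb1 at −0.30, −0.22, −0.92, 0.16 and −1.01, both above 0 in endothelial-like cells alone. Ndufb3 was at −0.28, −0.12, −0.94, −1.18 and −0.77. Sdhc had 100 UMIs in either library in the cancer-like, macrophage-like and endothelial-like cells, at −0.14, −1.48 and −0.99, and Sdha in those and in cluster 9, at −0.15, −1.81, −0.76 and −0.72.

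The last 3 classes are given by their values only. T-like cells had ratios of −0.66 for the nuclear and −0.73 for the mt- sum, but the 93 PT cells came mainly from cluster 9 and from cluster 10.4, led by histone and mitosis genes, whereas most of the 3660 LN cells came from clusters 3 and 6, with Lef1 among their leading genes. The ribosomal ratio was 0.82. Cox7a2l (0.83), Ndufb5 (0.25) and Atp5d (0.25) were highest there, and Ndufc1 (−2.42), Sdhc (−1.93) and Ndufc2 (−1.79) lowest. In NK-like cells only 9 members had 100 UMIs in either library, from Atp5d (1.28), Atp5h (0.31) and Uqcrh (0.16) down to Atp5l (−0.27), Cox4i1 (−0.28) and Cox8a (−0.45). Neutrophil-like cells (37 LN and 309 PT) had −0.68 for the nuclear and −2.37 for the mt- sum, with 16 members compared, from Atp5h (0.16), Cox6b1 (0.01) and Cox8a (−0.29) to Cox6c (−1.40), Atp5g2 (−2.56) and Ndufa4 (2 against 102 UMIs, −3.34). The PT neutrophil-like cells carried 2092 CPM of cancer markers, 7 of 8 detected at 10 CPM or more, against 87.6 CPM in LN, which moves with that difference and whose part was not tested. The nuclear difference also depended on the cells kept. The PT nuclear sum, 12755 CPM, was 11916 with the mitochondrial limit at 10% and 8793 with no such limit. It was 9475 with no upper limit on genes, 8978 with doublets kept and 12548 with each library clustered on its own. Where the class was present, the LN sum lay between 7862 and 7966 under these settings.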

How the data were processed

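The files hold UMI counts per gene and cell, raw as deposited, which the authors made with Cell Ranger on GRCm38. The submitters' processing notes name version 2.1.1, the file header 5.0.0 and the study's reporting summary a later one, and which of them made the matrices is not settled here. How the gene list was shortened to 22620 genes is not given in the sources used here. Cells were kept with over 200 and up to 6000 detected genes and at most 5% mitochondrial UMIs, after the study's methods. Presumed doublets were removed with Scrublet in scanpy 1.11.5, with its automatic threshold in PT (391 cells). In LN the caller marked 0 cells, and the 616 with scores over percentile 94 were taken out instead. DoubletFinder and Harmony were not used here.

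Counts were scaled to 10000 per cell, 2000 variable genes per library were taken, cell cycle scores, from the lists in Seurat 5.3.0, were removed by regression, and 30 principal components were clustered with 15 neighbours by the Leiden method (igraph 0.11.9, Python 3.11.15). Clusters were named from marker lists by a scoring rule set after the data were seen, and rebuilt names may differ from the study's. Counts were summed per class and library and divided by the total (CPM). Log2 ratios had 0.5 counts added, and genes with at least 100 UMIs in either group were compared. With 1 library per group there was no test. Intervals are exact Poisson or Clopper-Pearson intervals. The scripts were tested on simulated data.

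Named are the isoform sets, the 5 highest and 5 lowest members of the cancer-like comparison, the 8 members with the largest ratio of highest to median group (Cox7a1 only through the 3-count floor in a shallow group), the 3 with most UMIs per complex, the Sdh genes and, per other class, the 3 highest and lowest. Other lists are given by counts, medians and the 2 highest and lowest. Members and lists were chosen with earlier results of these data known, and the cluster pairs after their sums were seen. Alternatives tried are given in the closing section. Protein sequences were not used here, and a few named genes under these rules, 1 member among them, are not reported here.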

Additional observations from a re-analysis of the deposited data

How the results depend on the processing

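No paired analysis was possible because each tissue has 1 library, so the groups share fewer than 2 replicate numbers and no test was made. The log2 ratio of the nuclear sum in cancer-like cells, 0.01, turned to −0.02 with cells of 10000 to 40000 UMIs. It was 0.03 with a mitochondrial limit of 10% and with no limit, 0.01 with no upper limit on genes, 0.00 with doublets kept, 0.02 with each library clustered on its own, 0.07 as the mean of single-cell CPM, 0.02 without mt- and ribosomal protein genes in the total, and 0.00 in cluster 4 alone. The mt- ratio, −0.06, was −0.17, −0.14 and −0.10 under those 3 limits, −0.05 clustered separately, −0.04 as the single-cell mean, −0.02 in cells of 10000 to 40000 UMIs and −0.21 in cluster 4. Members over 1.5-fold lower, 2, were 1 with the mitochondrial limit at 10% or lifted, as the single-cell mean, and without mt- and ribosomal protein genes, and 0 at 2-fold. Those higher, 4, were 8 as the single-cell mean and 1 at 2-fold. The order of the nuclear sum over groups had a rho with the reported order of 0.88 with the 10% limit, 0.87 without it, 0.89 with no gene limit, 0.87 without mt- and ribosomal protein genes and 0.99 under the others. The alternatives for the cluster pairs were chosen after seeing the data (as was cluster 4 alone). Cells of 2000 to 6000 UMIs gave nuclear ratios of 0.56 (cluster 21, 34 higher and 2 lower) and 0.54 (cluster 15). Their mt- ratios were −0.14 and −0.39. Cells of 10000 to 40000 UMIs gave 0.63 for the nuclear and 0.36 for the mt- sum (cluster 5). Without mt- and ribosomal protein genes the nuclear ratios were 0.70, 0.55 and 0.14, with 20 members higher and 4 lower in cluster 5. The mt- ratios were then −0.29, −0.38 and −0.16, so that of cluster 5 changed sign. The cause of these shifts was not tested. Depth limits the PT groups under 50 cells, where members rest on a few UMIs.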
